A study of Mus musculus with 2 samples.

Results

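The vascular endothelial growth factor (VEGF) system was measured in mouse heart cells with a Tie2Cre history, sorted at embryonic day 12.5. The set was chosen by gene symbol and holds 8 genes: the ligands Vegfa, Vegfb and Vegfc, the receptors Kdr, Flt1 and Flt4, and the neuropilins Nrp1 and Nrp2. Of 34945 probe sets that name exactly 1 gene, 21 name a member, and the 8 members are among 18193 genes on the array. There was 1 array of control cells, Tie2Cre;Tbx20 +/loxP, and 1 array of mutant cells, Tie2Cre;Tbx20 loxP/-. Tbx20 encodes a cardiac transcription factor of the T-box family, and the comparison asks how the lineage's transcripts differ when it carries no working copy. Both genotypes carry the Tie2Cre transgene, which recombines loxP sites in endothelial and endocardial cells, in the cushion mesenchyme that descends from them, and in blood. Where it recombines, control cells keep 1 working Tbx20 allele and mutant cells none, so the control is heterozygous in these cells and not wild type. The other mutant allele is null in every cell of the animal. Cells bearing the blood markers CD41, CD45 or Ter119 were gated out, and how many embryos went into each sort is not given in the sources used here.

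VEGF ligands are secreted dimers that bind receptor tyrosine kinases on endothelial cells. VEGF-A acts mainly through the receptor encoded by Kdr, while the Flt1 product binds VEGF-A and VEGF-B tightly with weak kinase output and can act as a decoy. VEGF-C acts through the Flt4 product, in lymphatic endothelium and in growing vessels, and neuropilins are co-receptors that also bind class 3 semaphorins. In the embryonic heart, VEGF-A level influences endocardial cushion formation, and VEGF-C takes part in coronary vessel growth.

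The promoter sequences of the ligand genes are shown because all 3 ligands read lower in the mutant array. Those of Kdr and Nrp2, and the window before a downstream Vegfa start inside the gene, are shown because they hold a searched motif. Each is the 250 bases before a RefSeq transcript start in build GRCm38.p6, written 5′ to 3′ on the gene's strand, with motif matches in capitals.
Vegfa, chr17:46032378-46032627, minus strand: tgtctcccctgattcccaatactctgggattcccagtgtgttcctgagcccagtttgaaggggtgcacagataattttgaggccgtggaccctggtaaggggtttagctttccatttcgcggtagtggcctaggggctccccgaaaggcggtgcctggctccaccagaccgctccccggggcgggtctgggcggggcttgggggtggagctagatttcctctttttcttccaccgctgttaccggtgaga
Vegfb, chr19:6987652-6987901, minus strand: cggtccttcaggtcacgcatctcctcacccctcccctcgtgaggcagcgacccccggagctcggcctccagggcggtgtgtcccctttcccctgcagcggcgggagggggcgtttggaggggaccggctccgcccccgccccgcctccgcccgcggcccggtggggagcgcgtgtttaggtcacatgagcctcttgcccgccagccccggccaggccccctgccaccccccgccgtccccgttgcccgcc
Vegfc, chr8:54077282-54077531, plus strand: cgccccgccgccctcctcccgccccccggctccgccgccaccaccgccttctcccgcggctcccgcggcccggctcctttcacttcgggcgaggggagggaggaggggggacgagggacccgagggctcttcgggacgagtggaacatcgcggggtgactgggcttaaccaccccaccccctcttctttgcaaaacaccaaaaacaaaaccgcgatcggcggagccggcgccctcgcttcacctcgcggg
Vegfa downstream start, chr17:46025164-46025413, minus strand: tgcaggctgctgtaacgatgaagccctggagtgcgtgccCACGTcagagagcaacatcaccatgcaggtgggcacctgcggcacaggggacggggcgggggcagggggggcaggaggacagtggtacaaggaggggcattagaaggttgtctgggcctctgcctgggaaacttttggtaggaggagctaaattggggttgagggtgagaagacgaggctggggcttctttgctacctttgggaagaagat
Kdr, chr5:75978456-75978705, minus strand: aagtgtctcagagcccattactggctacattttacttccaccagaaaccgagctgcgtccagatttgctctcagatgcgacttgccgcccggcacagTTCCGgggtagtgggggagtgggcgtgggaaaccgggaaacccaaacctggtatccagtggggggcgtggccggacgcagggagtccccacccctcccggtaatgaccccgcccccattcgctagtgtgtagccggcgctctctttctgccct
Nrp2, chr1:62703067-62703316, plus strand: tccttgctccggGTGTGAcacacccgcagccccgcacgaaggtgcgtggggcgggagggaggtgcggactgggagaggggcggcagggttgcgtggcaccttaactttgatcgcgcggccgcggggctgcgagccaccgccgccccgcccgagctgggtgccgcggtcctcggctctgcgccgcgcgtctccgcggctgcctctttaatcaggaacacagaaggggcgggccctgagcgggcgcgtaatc

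All 8 members matched the RefSeq promoter table, with 9 windows, because Vegfa has an additional, downstream start. Windows were searched on both strands for GTGTGA, a core of T-box binding sites, and for ACGTG, the core of hypoxia response elements. TTCCG, a form of the ETS core, was searched likewise, and other forms of that core were not. No 2 matches overlapped. GTGTGA was in 1 of the 9 windows, that of Nrp2, and in 12.3% of all 32851 windows of this length. ACGTG was in the downstream Vegfa window only, against 16.6% of all windows, and TTCCG in the Kdr window only, against 25.2%. The downstream Vegfa window lies inside the gene, and its match is in protein-coding sequence of the longer Vegfa transcripts. The windows at the upstream Vegfa start, at Vegfb and at Vegfc hold none of the motifs, and their GC content was 59.2% for Vegfa, 76.4% for Vegfb and 71.6% for Vegfc. A match or its absence in 250 bases is a description of the sequence and says nothing of binding.

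Signals are linear MAS5 intensities, and a ratio is the log2 of the mutant over the control signal. A probe set was counted as measured when it lay above the array's median signal, called the floor here, on both arrays. The floors were 91.3 for control and 82.4 for mutant cells. A gene took the ratio of its brightest probe set, and 10649 genes were measured with a median ratio of -0.01 (SD 0.38 over genes). With 1 array per genotype no test was possible, and an effect of genotype cannot be told apart from any other difference between the 2 preparations. The measure of error used below is the SD between probe sets of the same gene, which was 0.45 at a mean signal under 200, 0.37 from 200 to 1000 and 0.28 above 1000, and which covers probe error and not animals. The 3 Tbx20 probe sets read 84.0%, 85.9% and 60.2% of control in the mutant, and the labels do not say which exons are removed. The ratio of 3′ to 5′ Gapdh signal was 2.27 on the control array and 1.64 on the mutant array, and all 18 spike-in control probe sets were lower in the mutant, with a mean ratio of -0.45. The part of these array differences in the results below was not tested.

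The ligands read lower in the mutant array, while the receptors and Nrp1 had gene ratios between -0.15 and 0.16. All 8 members were measured, 6 with a lower and 2 with a higher ratio, and their median was -0.29. This median was -0.093 with the floor at the 75th percentile, -0.11 with the median over probe sets and -0.42 with unsuffixed probe sets only. By the size rule of 1.5-fold, 2 members were lower, Vegfa and Vegfc, against 6.61% of all measured genes, and 0 were higher, against 4.38%. At 2-fold, 0 members passed in either direction, where 2.11% of all measured genes did. Of the 19 measured member probe sets, 12 were lower, where 50.1% of all measured probe sets were. These 12 were unevenly spread, with 6 of 6 ligand probe sets lower and 6 of 13 receptor and neuropilin probe sets lower. The median ratio was -0.83 over the ligand probe sets and 0.08 over the others. Of all genes measured, 50.9% were lower by any amount.

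**Figure D1:**
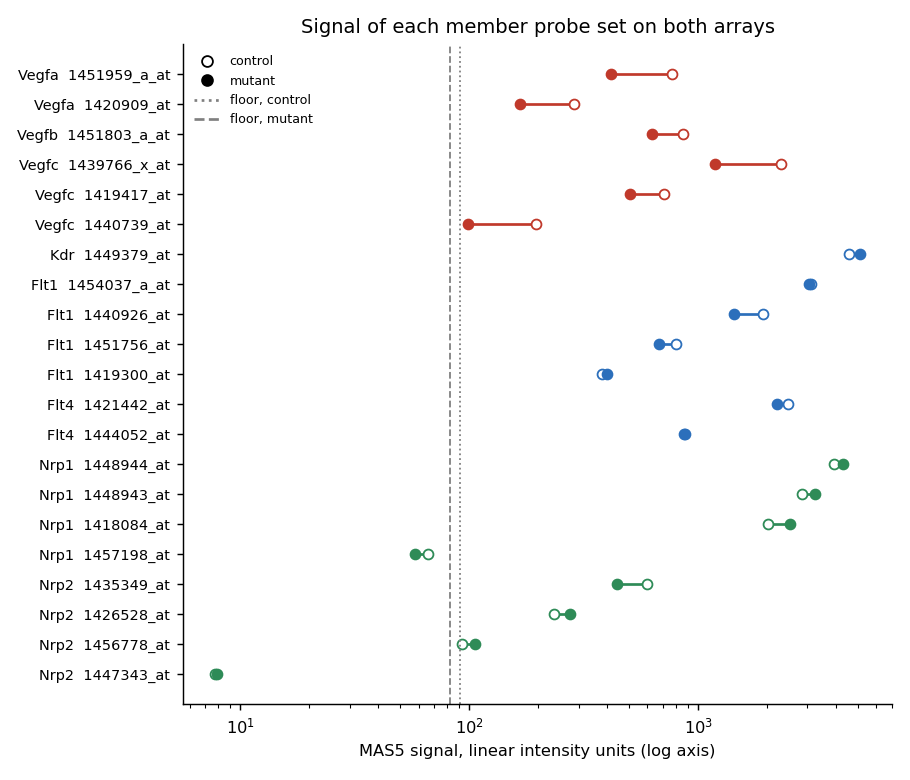
MAS5 signal of each of the 21 member probe sets on the control array (open circles) and the mutant array (filled circles), on a log axis, with the floor of each array as a vertical line. All 6 ligand probe sets (red) lie to the left in the mutant, and 2 neuropilin probe sets (green) lie below both floors.

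Vegfa encodes VEGF-A, the principal ligand of the Kdr receptor. Its brighter probe set (1451959_a_at) read 772 in control cells and 417 in mutant cells, a ratio of -0.89, so that the mutant signal was 54.1% of control. The dimmer probe set (1420909_at) read 286 and 167, a ratio of -0.78. The 2 probe sets therefore gave nearly the same ratio, with a mean of -0.83 (SD 0.08 over 2 probe sets). Taken singly, each is beyond the SD of 0.37 between probe sets of a gene at this brightness. Among genes with exactly 2 measured probe sets, both were lower in 28.8%. Vegfa stood at rank 230 from the lowest of 10649 measured genes. In its own class of brightness, from 200 to 1000, 7.29% of genes were at least 1.5-fold lower and 2.03% had a ratio at or below that of Vegfa.

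Vegfc encodes VEGF-C, the ligand of the Flt4 receptor, and had the lowest gene ratio of the 8 members. Its brightest probe set (1439766_x_at) read 2291 in control cells and 1184 in mutant cells, a ratio of -0.95. The suffix x marks a probe set whose probes may also pair with other transcripts. The middle probe set (1419417_at) read 710 and 502, a ratio of -0.50, or 1.41-fold lower. The dimmest (1440739_at) read 196 and 98.4, close to the mutant floor of 82.4, a ratio of -0.99. All 3 were thus lower, with a mean of -0.82 (SD 0.27 over 3 probe sets), which was the case for 15.6% of genes with exactly 3 measured probe sets. They differ in size, and with unsuffixed probe sets only the gene value is -0.50, short of 1.5-fold. The gene value of -0.95 is at rank 187 from the lowest of 10649 genes. At a mean signal over 1000, 2.94% of genes were at least 1.5-fold lower, and 0.782% were at or below the Vegfc ratio.

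Vegfb encodes VEGF-B, a ligand of the Flt1 receptor. Its single probe set (1451803_a_at) read 855 in control cells and 629 in mutant cells, a ratio of -0.44 that did not reach 1.5-fold. This is slightly more than the SD of 0.37 between probe sets of a gene, and 13.1% of genes of like brightness had a ratio as low or lower. Of the 6 ligand probe sets, 4 were at least 1.5-fold lower, all of them of Vegfa and Vegfc, against 7.29% of all measured probe sets. Probe sets of the same gene share their RNA and are no replicates.

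**Figure D2:**
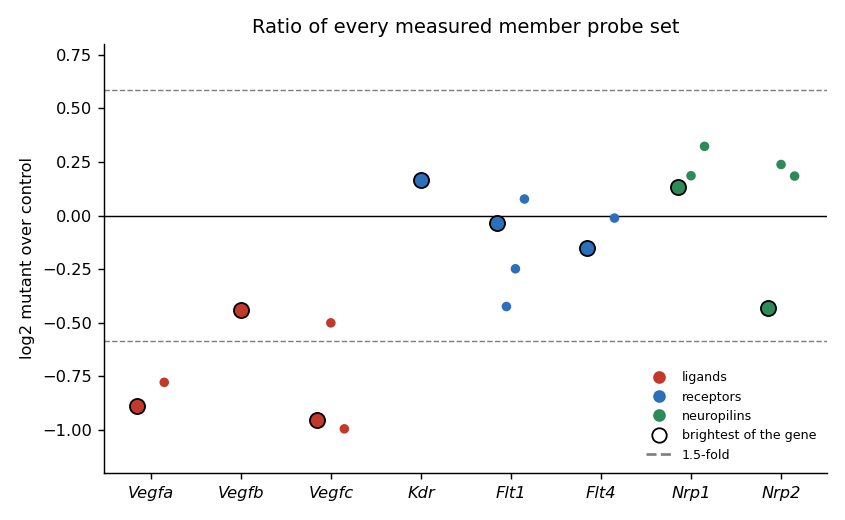
Log2 ratio of mutant over control for the 19 measured probe sets, by gene, with the brightest probe set of each gene as a large outlined point and 1.5-fold as dashed lines. The Vegfa and Vegfc probe sets reach from -0.50 to -0.99, while those of Kdr, Flt1, Flt4 and Nrp1 lie between -0.42 and 0.32.

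The brightest probe sets of all 3 receptors had ratios within the SD between probe sets of a gene at their brightness, but another Flt1 probe set did not. Kdr encodes the main signalling receptor for VEGF-A and an early endothelial marker. It read 4549 in control cells and 5100 in mutant cells, a ratio of 0.16 from its only probe set, within the SD of 0.28 at this brightness. Its ratio was positive in all 9 settings tried, between 0.15 and 0.19.

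Flt1 encodes a high-affinity receptor that is also made as a soluble form, and which form each probe set reads is not given in the files. Its 4 probe sets read, from bright to dim, 3108 and 3035, 1928 and 1437, 802 and 675, and 379 and 399 in control and mutant. The ratios were -0.03, -0.42, -0.25 and 0.08, so that 3 were lower and 1 higher, with a mean of -0.16 (SD 0.22 over 4 probe sets). The second of them is beyond the SD of 0.28 at its brightness, and gives the gene value of -0.42 with unsuffixed probe sets only. The spread among the 4 exceeds their mean, and the brightest kept 97.7% of the control signal.

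Flt4 encodes the VEGF-C receptor, which marks lymphatic endothelium and is also present in embryonic blood vessels and endocardium. Its brighter probe set read 2462 in control cells and 2215 in mutant cells, a ratio of -0.15, and the dimmer 871 and 864, a ratio of -0.01. Both are within the SD between probe sets at their brightness. The 2 probe sets of this VEGF-C receptor thus kept 90.0% and 99.2% of their control signal. Those of Vegfc kept 51.7% in the brightest, which carries the suffix x, 70.7% in the middle and 50.2% in the dimmest. Whether ligands and receptors differ beyond the spread between animals was not tested, since there is no replicate.

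The measured probe sets of Nrp1 all read higher, and those of Nrp2 disagreed. Nrp1 encodes the co-receptor that enhances VEGF-A binding to the Kdr product and also binds semaphorin 3A. Control signals of its 3 measured probe sets were 3902, 2844 and 2020, and the mutant signals were 4281, 3235 and 2526. The ratios of 0.13, 0.19 and 0.32 were all positive, as in 17.9% of genes with exactly 3 measured probe sets, and their mean was 0.21 (SD 0.10 over 3 probe sets). Taken singly, 0.13 and 0.19 are within the SD of 0.28 between probe sets of a gene at this brightness, and 0.32 is beyond it. Its remaining probe set (1457198_at) was below the floor on both arrays, at 65.7 and 58.0.

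Nrp2 encodes the neuropilin found on venous and lymphatic endothelium, which binds VEGF-C and semaphorin 3F. Its brightest probe set (1435349_at) read 595 in control cells and 441 in mutant cells, a ratio of -0.43. The next (1426528_at) read 234 and 276, a ratio of 0.24, and the dimmest measured (1456778_at) read 93.2 and 106, near the floor, a ratio of 0.18. These probe sets disagree in sign, with a mean of -0.0031 (SD 0.37 over 3 probe sets), and no direction is given for Nrp2. The remaining probe set was at 7.75 and 7.93, far below both floors.

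**Figure D3:**
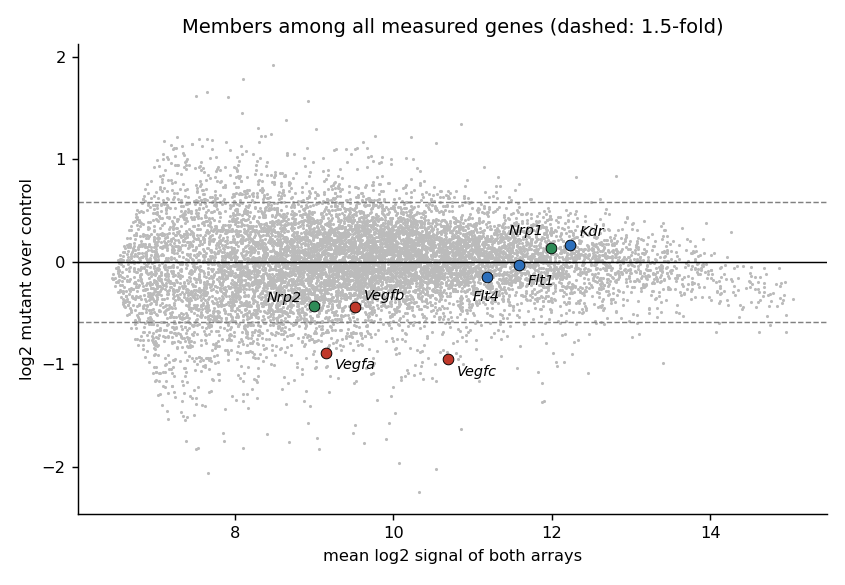
Log2 ratio against mean log2 signal for all 10649 measured genes (grey) and the 8 members (coloured as ligands, receptors and neuropilins), with 1.5-fold as dashed lines. Vegfa and Vegfc lie under the lower dashed line, and the receptors and Nrp1 lie near 0 among the brighter genes.

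Member directions were the same after median scaling, after quantile normalization and after a loess correction for brightness. Over all settings in which a gene value could be had, Vegfa ran from -0.91 to -0.78, Vegfb from -0.48 to -0.41 and Vegfc from -0.99 to -0.50. Flt1 ran from -0.42 to -0.03, Flt4 from -0.19 to -0.08 and Nrp1 from 0.12 to 0.19. Nrp2 ran from -0.45 to 0.18, and it alone changed sign, when the median of its probe sets was taken.

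**Figure D4:**
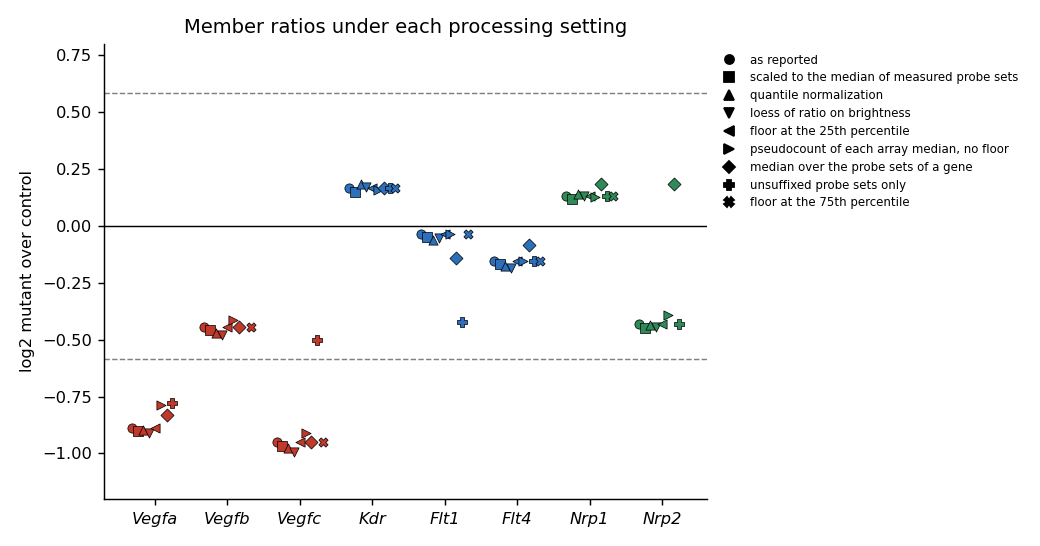
Log2 ratio of each member under the reported setting and 8 alternatives, with 1.5-fold as dashed lines. Vegfa stays below the lower line wherever it is measured, Vegfc leaves it only with unsuffixed probe sets (-0.50), and Nrp2 crosses 0 with the median of its probe sets (0.18).

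Other genes around the pathway are described by list, each read against the 6.61% of all genes that were at least 1.5-fold lower and the 4.38% that were higher. By any amount, 50.9% of all measured genes were lower, and counts of lower list members are read against that share. Of the remaining VEGF family ligands, Pgf, which encodes the Flt1 ligand placental growth factor, read 313 in control cells and 249 in mutant cells, a ratio of -0.33. Vegfd, which encodes a second Flt4 ligand, was at -0.08 in its brightest probe set, which carries the suffix x and read 342 and 324. Its unsuffixed probe sets read 295 and 189 (-0.64), and 207 and 92.9 (-1.15). Neither gene value reached 1.5-fold, so 0 of 2 were called, but Vegfd is at -0.64 and past 1.5-fold with unsuffixed probe sets or with the median over its probe sets.

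Genes for VEGF-C processing and for binding of VEGF to matrix had 5 of 6 measured members lower, 1 of them at 1.5-fold, and a median of -0.33. Gpc1, a cell-surface heparan sulphate proteoglycan, read 4771 and 3147, a ratio of -0.60. The proprotein convertase genes Pcsk7 and Pcsk5 were at -0.48 and -0.46, and Hspg2, which encodes perlecan, was at -0.19. The convertase gene Furin, named here as the 1 measured member that was higher, read 2234 and 2446 (0.13). Ccbe1, which encodes an extracellular cofactor of VEGF-C cleavage, was below the floor on both arrays.

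Class 3 semaphorins and plexins, the other partners of neuropilins, had 6 of 11 measured members lower and 5 higher, with a median of -0.0038 that changed sign between settings. The ligand gene Sema3a read 1331 and 1936, a ratio of 0.54, with measured probe sets from 0.43 to 0.63. Sema3d read 114 and 175 (0.62), against a control floor of 91.3, and was the 1 member at 1.5-fold. Sema3g was at -0.44 and Plxna4 at -0.56, the latter with another probe set at -0.03.

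Receptor partners and signal transducers had 13 of 25 measured members lower and 12 higher, with a median of -0.02. The median changed sign, to 0.013 with the higher floor and 0.077 with the median over probe sets. At 1.5-fold, 2 of those measured were lower and 0 higher. Outside these counts, the brightest Ptprj probe set read 83.8 and 176.6, above the floor in mutant cells only. It was at least 1.93-fold higher there, while a measured Ptprj probe set was at -0.10. Itgb3, an integrin subunit that associates with the Kdr receptor, read 283 and 99.6, a ratio of -1.51 from a mutant signal near the floor. Shb, an adaptor of the same receptor, was at -0.63. Ptprb, which encodes the endothelial phosphatase VE-PTP, read 3179 and 2218 (-0.52), with probe sets from -1.10 to -0.43, and the adaptor gene Grb2 was at 0.47.

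Genes known to be induced by VEGF in endothelial cells had 12 of 16 measured members lower, 3 lower and 1 higher at 1.5-fold, and a median of -0.15. Egr3 read 647 and 248, a ratio of -1.38, and Egr2 read 2832 and 1571 (-0.85). Both are immediate early transcription factors that many other stimuli also induce. The chemokine receptor gene Cxcr4 was at -0.62. Dll4, the Notch ligand of arterial and tip cells, went the other way, with 173 and 266 (0.62) and a second probe set at 0.44. Esm1, Ptgs2 and F3 were below the floor on both arrays. Above the floor in control cells only were Nr4a3, at 117 and 60.0, and Angpt2, at 107 and 52.9. They were at least 1.42-fold and at least 1.30-fold lower in mutant cells. Apln, at 73.3 and 106.8, was above the floor in mutant cells only and at least 1.17-fold higher there.

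Transcription factors that act on VEGF receptor genes had 11 of 18 measured members lower and a median of -0.10, with 0 lower and 1 higher at 1.5-fold. Etv2, an ETS factor of early endothelial specification, read 283 and 841, a ratio of 1.57. Gata2 was at 0.49, and the flow-responsive genes Klf2 and Klf4 at -0.46 and -0.41. Kdr, a target of such factors, was at 0.16 in the same arrays. The part of these factors in the Kdr ratio was not tested.

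Hypoxia-inducible factors, their regulators and targets had 10 of 16 measured members lower, 5 of them at 1.5-fold, and a median of -0.31. Vegfa is itself a hypoxia-inducible gene. Ankrd37 read 808 and 398 (-1.02), Egln3 1225 and 616 (-0.99), Ndrg1 1012 and 515 (-0.97) and Adm 6401 and 3260 (-0.97). The least changed probe set was at -0.32 for Ndrg1 and at -0.46 for Adm. The factor genes themselves, named here after their values were seen, went both ways, with Hif1a at 0.35, Arnt at 0.35 and Epas1 at -0.31, and other probe sets of Hif1a and Arnt were as low as -0.76 and -0.79. Car9 was below the floor on both arrays. The part of the hypoxia-related difference in the Vegfa ratio was not tested.

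**Figure D5:**
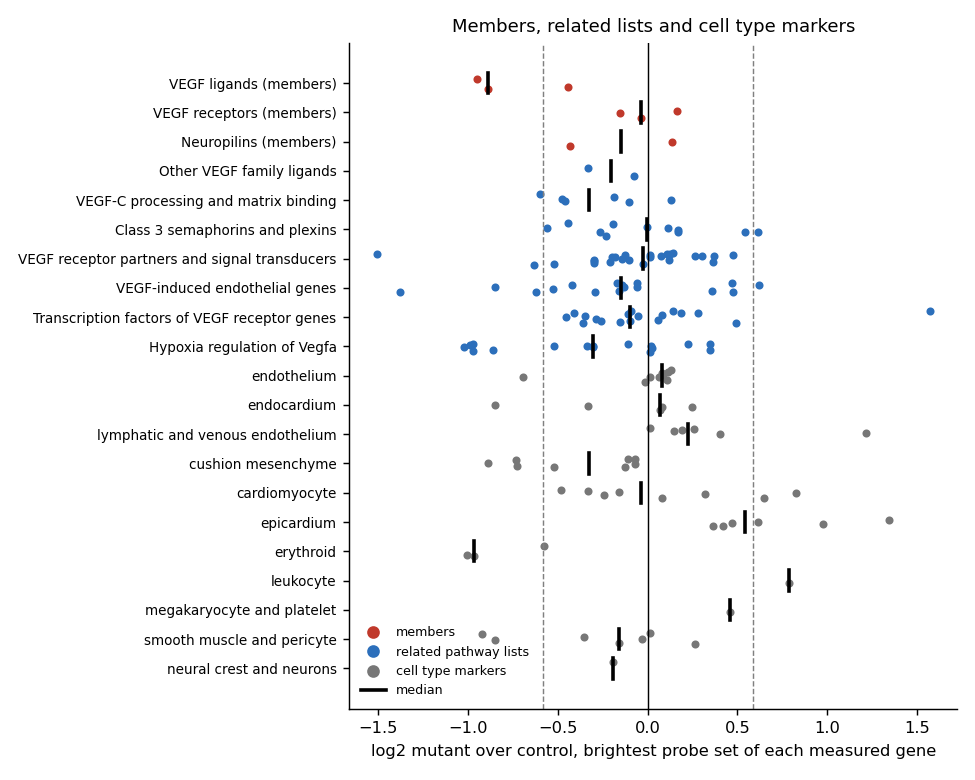
Log2 ratio of each measured gene (points) in the member lists (red), the related pathway lists (blue) and the cell type marker lists (grey), with the median of each list as a black bar and 1.5-fold as dashed lines. The ligand median of -0.89 lies left of the pathway medians shown in blue, the lowest of which is -0.33, and the erythroid median of -0.97 lies further left.

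The cells were checked against markers of their label. Of the 10649 measured genes, 5423 were lower and 5226 higher by any amount. At 1.5-fold, 6.61% were lower and 4.38% higher. All 9 endothelial and all 5 endocardial markers were measured, with medians of 0.08 and 0.07. Cdh5 and Pecam1, named here as defining endothelial markers, read 10886 and 10975, and 6438 and 6973. The endothelial list summed to 57340 in control and 59771 in mutant cells, a log2 difference of 0.06 beside which the receptor ratios can be read. Cldn5 was at -0.70 and Eng at 0.13, and among endocardial markers Cytl1 was at -0.85 and Nfatc1 at -0.33. Nfatc1 probe sets ran from -1.58 to 0.16. Lymphatic and venous markers were higher in 6 of 6, with a median of 0.23, summed signals of 6532 and 7535, Pdpn at 1.22 and Prox1 at 0.40. Pdpn read 101 and 236, from a control signal near the floor. Prox1 had a probe set at -0.63 and Lyve1 1 at -0.17, and Reln, also near the floor, was at 0.01.

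Markers of other cells moved in the same arrays as the ligands. Their counts stand beside the 50.9% of all measured genes that were lower by any amount. Cushion mesenchyme markers were lower in 8 of 8, with a median of -0.33 and summed signals of 50257 and 39920, with Snai2 at -0.89 and Postn at -0.73. The size was uneven. Col3a1 (-0.07), Sox9 (-0.07), Col1a1 (-0.11) and Pdgfra (-0.13), also named here, were within the SD of 0.28 between probe sets at their brightness. Epicardial markers were higher in 6 of 6 measured, with a median of 0.54 and summed signals of 4713 and 8098, Upk3b at 1.35, Aldh1a2 at 0.98, and Msln below both floors. Outside this count, the brightest Upk1b probe set read 89.9 and 269, above the floor in mutant cells only and at least 2.95-fold higher there. Measured Upk1b probe sets ran from 0.18 to 0.64. Cardiomyocyte markers were lower in 4 of 8 and higher in 4, with a median of -0.04 and Ryr2 below both floors. Their summed signals were 13842 and 17034, of which Myl7 alone made up 3811 and 6753. Myl7 was at 0.83 and Tnni3 at 0.65. The 4 lower markers, named here for balance, were Nppa (-0.48), Actn2 (-0.33), Tnnt2 (-0.24) and Myh6 (-0.16). Smooth muscle and pericyte markers were lower in 5 of 7, with a median of -0.16, summed signals of 11695 and 10140, Cspg4 at -0.93, Kcnj8 at -0.85, and Myh11 below both floors. Erythroid markers were lower in 3 of 3 measured, with a median of -0.97 and Slc4a1 below both floors. Their summed signals were 11189 and 7325, of which Hbb-y alone, also named here, made up 9843 and 6606 (-0.58). Globin signal was thus high on both arrays although cells bearing Ter119 were gated out. Hba-x was at -0.97, and Hbb-bh1, at -1.01, read 197 and 98.2, close to the mutant floor of 82.4. Alas2, at 114 and 63.1, was above the floor in control cells only and at least 1.38-fold lower in mutant cells.

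Leukocyte signal was low, with summed signals of 542 and 393, and markers went both ways. Cd68, the 1 marker above the floor on both arrays, was at 0.79. It read 93.8 and 162, from a control signal next to the floor of 91.3. Cx3cr1, at 226 and 47.8, and Csf1r, at 144 and 80.6, were above the floor in control cells only. Cx3cr1 and Csf1r were at least 2.74-fold and at least 1.74-fold lower in mutant cells. Below both floors were Ptprc, which encodes the gated CD45, Lyz2 and Itgam. Among megakaryocyte markers, summed at 320.2 and 499.7, Pf4 was at 0.46, and Itga2b, which encodes the gated CD41, and Gp9 were below both floors. Gp1bb, at 58.3 and 99.6, was above the floor in mutant cells only and at least 1.09-fold higher there. Of the neural crest and neuronal markers, summed at 1778 and 1486, Tubb3 was at -0.20 and Foxd3 below both floors. Sox10, at 137 and 64.3, was above the floor in control cells only and at least 1.66-fold lower in mutant cells. Fewer cells of a type and less RNA per cell cannot be told apart in sorted bulk samples, and the part of these cell type differences in the ligand ratios was not tested.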

How the data were processed

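Gene expression was measured on 2 Affymetrix 1-colour arrays, 1 per genotype. The authors deposited a linear intensity for each probe set, from MAS5 per the submitters' processing notes. After trimming 2% of probe sets at either end, the mean was 500.0 on both arrays. The MAS5 version and settings are not stated in the labels. MAS5 subtracts mismatch signal, which makes ratios of dim probe sets noisy, and its single scaling factor leaves trends with brightness in place.

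Of 45101 probe sets, 64 were array controls. Of the rest, 34945 named 1 gene in the platform annotation, 932 several and 9160 were not listed. Gene identifiers of all 21 member probe sets matched the RefSeq gene table. Values under each array's median were set to it, then put on the log2 scale. No test or p-value was computed, and the number of arrays limits the precision.

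Alternatives were median scaling, quantile normalization, loess (span 0.3), a floor at the 25th or 75th percentile, a median pseudocount without floor, the median over probe sets, unsuffixed probe sets and 2-fold. Related pathway lists name up to 4 genes each, cell type lists 2, with the largest absolute ratio. Exceptions are marked where they appear. The members and lists were chosen with earlier results of these data known. Scripts, in Python 3.11.15 with pandas 2.3.3 and statsmodels 0.14.6, were tested on simulated data.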

Additional observations from a re-analysis of the deposited data

How the results depend on the processing

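Nothing could be left out, and no paired analysis was possible because each genotype has a single array. A change of a median was judged against the SD between probe sets of a gene divided by the root of the number of genes. The member median of -0.29 was -0.093 with the floor at the 75th percentile, which leaves out Vegfa and Nrp2, -0.11 with the median over probe sets and -0.42 with unsuffixed probe sets, which leave out Vegfb. Of 2 members at least 1.5-fold lower, 1 remained with the higher floor, 1 with unsuffixed probe sets and 0 at 2-fold. With the higher floor 7 of 11 measured member probe sets were lower, against 12 of 19. Over all genes, 704 were lower and 466 higher at 1.5-fold, against 1560 and 918 with the floor at the 25th percentile, 183 and 128 at the 75th, and 156 and 69 at 2-fold. The median of other VEGF ligands was -0.48 with the median over probe sets and with unsuffixed probe sets. That of semaphorins and plexins turned to 0.14 after quantile normalization, 0.13 after loess, 0.056 with the lower floor and 0.17 with the higher. Signal transducers were at -0.10 with the lower floor and turned to 0.013 with the higher floor and 0.077 with the median over probe sets. Hypoxia genes were at -0.21 after quantile normalization, -0.20 after loess and -0.21 with the higher floor. The cause of these changes was not tested, beyond the genes lost with the higher floor.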
